A study of Danio rerio with 34 samples.

Results

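The transcripts described here are those at least 3-fold lower in zebrafish embryos given a morpholino against elavl1a (morphants) than in control embryos. The comparison was made at 6 hours post fertilization (h.p.f.), which the study labels shield. Members were chosen on RNA-seq levels in RPKM (reads per kilobase of transcript, scaled to the library's read total), as the mean of 2 libraries per group with an unlisted transcript set to 0. A transcript entered when control 6 h was at least 10 RPKM and morphant 6 h was at least 3-fold below it. The rule found 65 transcripts among the 5161 that reached 10 RPKM in control embryos at 6 h and among 13856 listed in any RNA-seq library, or 1.26% of those that could have entered. Gene symbols were known for 62 of them, which stood for 61 genes, and 4 of the 65 were annotated as noncoding RNAs. The 6 h difference chose the members, so every value of that contrast is given as a description with no test.

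RNA-seq was made on polyadenylated RNA of pooled AB-strain embryos in 5 groups of 2 libraries, which the submitters call biological replicates without saying whether they came from separate clutches. The groups were control embryos at 2, 4 and 6 h.p.f., labelled as normal embryos, and elavl1a morphants at 4 and 6 h.p.f. Morphants were injected at the 1-cell stage with an antisense morpholino against the start codon of elavl1a, which blocks translation of maternal and zygotic mRNA alike and leaves the gene intact. The methods also describe a control morpholino, and the sources used here do not say whether the control embryos received it. Separate embryo pools gave icSHAPE profiles, in which the reagent NAI-N3 marks flexible nucleotides of RNA inside cells. Wild type was profiled at 6 ages, from the egg through the 1-cell and 4-cell stages and 2 h to the 4 h sphere and the 6 h shield. Morphants were profiled at sphere and shield, and each condition gave 1 pooled profile. For each wild-type stage, 1 library with the reagent and 1 without it are listed, and for each morphant stage 2 of each.

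Elavl1a is the fish counterpart of HuR, an RNA-binding protein that recognizes U-rich stretches, mostly in 3′ UTRs, and is known for protecting mRNAs from decay. Early fish embryos live on mRNA laid down by the mother. In the maternal-to-zygotic transition these maternal mRNAs are cleared while the embryo's own genome is switched on, so a transcript can be scarce because it was removed or because it was not yet made, and a level alone does not separate the 2 routes.

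The RNA-seq libraries held 61776396 to 104388477 uniquely mapped reads each. Members took 0.390% and 0.392% of the unique reads of the control 2 h libraries, 0.396% and 0.398% at 4 h, 0.789% and 0.786% at 6 h, 0.395% in each morphant library of 4 h, and 0.198% and 0.200% in the morphant libraries of 6 h. A single noncoding RNA, NR_145818, took 0.641% to 4.76% of the unique reads and was highest in the control 4 h libraries. The targeted mRNA, elavl1a, was at 202 and 200.5 RPKM in controls and at 205 and 204 RPKM in morphants at 4 h, and at 298 and 299 RPKM in controls and at 343 and 342 RPKM in morphants at 6 h. A morpholino that blocks translation need not lower its mRNA, so these levels do not check the knockdown. The paper checked it at the protein level by western blotting. Genes that mark the gastrula were present in the 6 h embryos of both kinds. The mesodermal T-box gene tbxta was unlisted in both 2 h libraries, at 29.2 and 28.9 RPKM in controls and 17.9 and 19.0 RPKM in morphants at 4 h, and at 312 and 310.4 RPKM in controls and 350.4 and 348 RPKM in morphants at 6 h. Of the other 2 markers looked at, the endodermal sox32 and the organizer gene chrd, both were likewise below controls in each morphant library of 4 h and above them in each morphant library of 6 h. The paper reports that morphants reached sphere moderately late and that their gastrulation was markedly delayed. Embryos were matched by age, and these markers do not show that both kinds were at the same stage. The part of a delay in the depletion was not tested.

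The median member was 3.87-fold lower in morphants at 6 h, and the least depleted was 3.02-fold lower. Depletion reached 5-fold in 15 members and 10-fold in 4, namely eva1ba, NM_001100064, khk and cfap100. In 57 of the 65, each of the 4 pairings of a control with a morphant library gave a 3-fold difference or more, and in the other 8 at least 1 pairing fell short of it. Over the 5161 transcripts that could have entered, the median ratio of morphant to control was 0.978. The mirrored rule, with morphant 6 h at least 10 RPKM and 3-fold above control, found 136 transcripts. In whole embryos, fewer cells of a type and less RNA per cell cannot be told apart.

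Members lay close to the limits of the rule on both sides. Just inside the limit on the ratio were bik at 0.331, dnajb12b at 0.329 and si:dkey-238c7.12 at 0.327, and just outside it were zgc:112234 at 0.334, ptmaa at 0.338 and rftn2 at 0.339. On the limit of 10 RPKM in control 6 h, the lowest members were zgc:66388 at 10.03, cpm at 10.1, gpd1c at 10.6 and eva1ba at 10.7 RPKM. The transcripts just below it, with a ratio that met the rule, were si:dkey-251i10.1 at 9.67, aep1 at 9.62, slc22a2 at 9.51 and aldh9a1a.2 at 9.30 RPKM.

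Split by their level in control embryos at 2 h, before the main wave of zygotic transcription, members fell into 3 groups with different courses. At least 10 RPKM was present at 2 h for 23 members, 1 to 10 RPKM for 10, and under 1 RPKM for 32. The last group was 49.2% of the members against 8.35% of the 5161 transcripts with at least 10 RPKM at 6 h, and the first was 35.4% of the members against 83.6%. Transcripts scarce at 2 h were thus a larger share of the members than of the background, and the rule did not use the 2 h libraries.

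**Figure D1:**
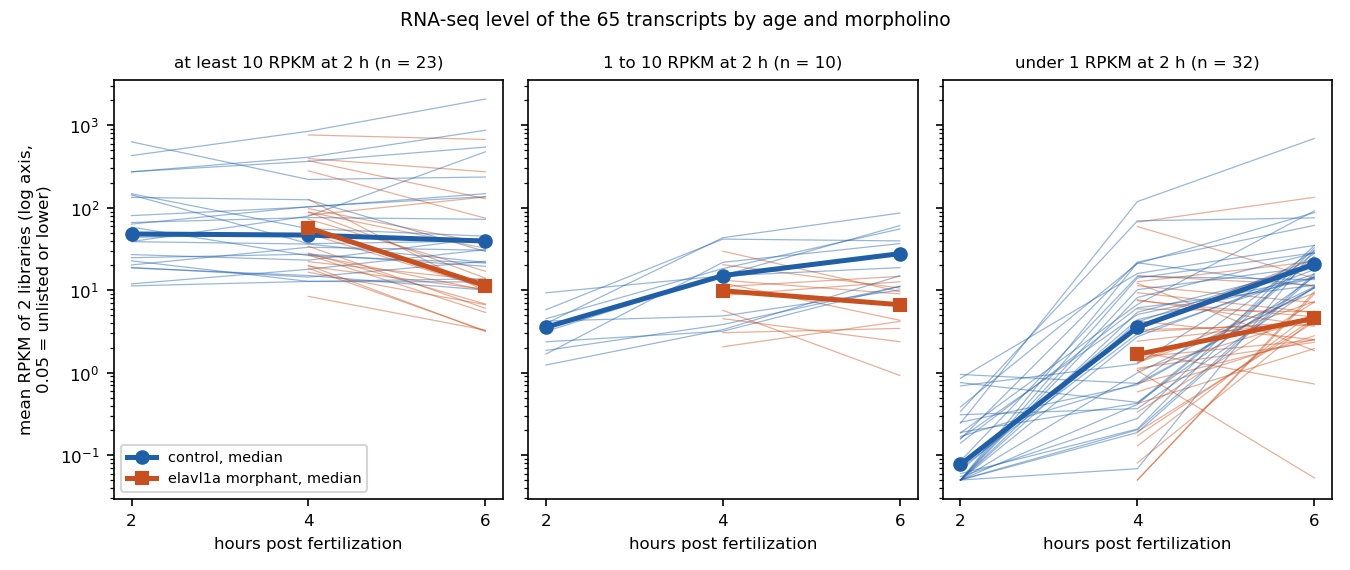
Mean RPKM of 2 libraries per transcript (thin lines) and the median over members (thick lines) at 2, 4 and 6 hours post fertilization, on a log axis, for control embryos (blue circles) and elavl1a morphants (orange squares), in 3 panels by control level at 2 h; values under 0.05 RPKM are drawn at 0.05. Among the 23 members with at least 10 RPKM at 2 h the morphant median drops from 57.0 RPKM at 4 h to 11.4 RPKM at 6 h, while among the 32 members under 1 RPKM at 2 h it climbs from 1.67 to 4.58 RPKM, below the control median of 20.7 RPKM.

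The 23 members already abundant at 2 h had a similar median at all 3 ages in controls. It was 48.1 RPKM at 2 h, 46.7 RPKM at 4 h and 39.5 RPKM at 6 h in control embryos. In morphants it was 57.0 RPKM at 4 h and 11.4 RPKM at 6 h. There 22 of the 23 were lower at 6 h than at 4 h, cnbpb being the exception. Of the 4314 transcripts with at least 10 RPKM at both 2 h and 6 h in controls, 61.3% were lower in morphants at 6 h than at 4 h. The median ratio of 6 h to 4 h was 1.07 in controls and 0.267 in morphants, against 0.796 and 0.793 over these 4314. The 6 h libraries chose the members, so these ratios describe the selection and are not a test of it.

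The 32 members under 1 RPKM at 2 h climbed in both kinds of embryo, to a lower level in morphants. Their median was 0.0772 RPKM at 2 h, 3.55 RPKM at 4 h and 20.7 RPKM at 6 h in controls, and 1.67 RPKM at 4 h and 4.58 RPKM at 6 h in morphants. Control 6 h was above control 4 h in 30 of the 32, and morphant 6 h was above morphant 4 h in 21 of them. In the other 11 morphant 6 h was below morphant 4 h, against 11.6% of the 431 transcripts of the background class. The median ratio of 6 h to 4 h was 6.17 in controls and 1.76 in morphants, against 6.55 and 8.49 over the 431 transcripts of the same 2 h and 6 h levels. The 10 members between both groups had median ratios of 2.48 in controls and 0.604 in morphants.

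Control embryos at 4 h were compared with those at 2 h, which the rule did not use, by edgeR's quasi-likelihood test on unique reads with Benjamini-Hochberg adjustment over 9945 transcripts. At an adjusted p under 0.05, 48 of the 65 members (73.8%) were higher at 4 h against 28.2% of all tested, and 10 members (15.4%) were lower against 55% of all tested. All 65 passed the filter on low values through their control 6 h level, which the rule set. Among the 51 with a mean of at least 1 RPKM over the 4 libraries of 2 h and 4 h, 38 were higher against 26.4% of the transcripts at that level and 8 were lower against 57.5%. At least a 2-fold rise was called in 35 members (53.8%) against 11.5% of all tested. The median log2 change was 1.51 over members and −0.23 over all tested transcripts. For 11 members no 2 h library listed the transcript, and their fitted changes are no estimate of size. With these 11 set against 0.1 RPKM, the lowest level the tables list, the member median was 1.09. Scaling by TMM in place of the library total moved the median of all transcripts to 0.01 and the counts of members to 54 higher and 7 lower, against 41.7% and 38.6% of all tested under that scaling.

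These calls moved with the 2 h level as well, which is part of this comparison. Among the 23 members abundant at 2 h, 11 (47.8%) were higher and 8 (34.8%) lower at 4 h, against 32.2% and 55.1% of the 4314 transcripts of that class. Of the 10 members with 1 to 10 RPKM, 9 were higher and 0 lower, against 74.3% and 14.4%. Of the 32 under 1 RPKM, 28 (87.5%) were higher and 2 (6.25%) lower, against 95.8% and 0.696%, so in this class the share of higher calls was below its background.

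Among the members that fell most from 2 to 4 h in controls, 5 were abundant at 2 h and have roles in the cytoskeleton, signalling or gene regulation. The mRNA of the centrosomal protein gene cep57l1 went from 143 RPKM in both 2 h libraries to 37.8 and 35.5 RPKM (log2 change −2.01 ± 0.03 SE, edgeR adjusted p = 8.8e-22). The mRNA of hirip3, which encodes a partner of the histone chaperone HIRA, went from 625 and 633 RPKM to 219 and 221 RPKM (−1.51 ± 0.02). ppp2r2d, a regulatory subunit of protein phosphatase 2A, fell by 1.43 on the log2 scale, and the zinc finger gene znf143b by 1.19. The microtubule-associated map9 had a log2 change of −0.89. In all 5 the control level then held from 4 to 6 h within a ratio of 0.810 to 1.08, and in morphants at 6 h all 5 were at 3.17 to 74.8 RPKM, below the lowest control library of any age. zgc:174888 was the other of the 6 largest falls, at 0.759 RPKM at 2 h and 0.437 RPKM at 4 h.

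Rises from 2 to 4 h cannot be ranked by the fit where a transcript is unlisted at 2 h. Among members listed in both 2 h libraries, mean RPKM rose 486.5-fold for hmgn6, 204-fold for phkg1a and 140-fold for mbnl1, from 0.244, 0.340 and 0.157 RPKM. For members unlisted in both 2 h libraries the fold is a lower bound against 0.1 RPKM, which was 215-fold for si:dkey-14d8.6, 141-fold for NM_001114702, 102-fold for si:dkey-48g21.7, 81.6-fold for spns2 and 54.2-fold for znfl1b. NM_001114702 reached 14.3 and 13.9 RPKM at 4 h, znfl1b 5.09 and 5.75 RPKM, and si:dkey-14d8.6 21.3 and 21.7 RPKM. spns2, which encodes an exporter of the lipid signal sphingosine-1-phosphate that zebrafish need for heart precursor migration, reached 7.42 and 8.91 RPKM. si:dkey-48g21.7, annotated as noncoding, reached 10.2 and 10.1 RPKM. The edgeR adjusted p was at most 5.02e-16 in these 5.

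Morphants at 4 h were compared with controls at 4 h by the same test, and neither group entered the rule. Of the 65 members, 32 (49.2%) were lower in morphants against 22.9% of all 9945 transcripts, 14 (21.5%) were higher against 39.5%, and 19 were not called. At least a 2-fold fall was called in 8 members (12.3%) against 2.27% of all, and at least a 2-fold rise in 1 member, bik (1.54%), against 1.45%. Of the 8, ckmt1 (0.208 RPKM in controls, unlisted in morphants) and a2m2e (0.279 and 0.130 RPKM) were near the listing limit. The 2-fold shares were not split by 2 h level. The median log2 change was −0.31 over members and 0.07 over all tested. Among the 54 members with a mean of at least 1 RPKM over the 4 libraries of 4 h, 28 were lower against 22.7% of the transcripts at that level and 12 were higher against 40.9%.

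The excess of lower calls moved with the 2 h level, and the gastrula markers above were lower in morphants at 4 h as well. The part of these markers in the result was not tested. Among the 32 members under 1 RPKM at 2 h, 19 (59.4%) were lower at 4 h, against 70.5% of the 431 transcripts with that level at 2 h and at least 10 RPKM at 6 h, and 5 (15.6%) were higher against 8.12%. Among the 10 members with 1 to 10 RPKM at 2 h, 6 were lower against 55.3% of 416 transcripts, and 1 was higher against 13.7%. Among the 23 abundant at 2 h, 7 (30.4%) were lower against 29% and 8 (34.8%) were higher against 41.6%. Within each class the median log2 change of members and of the background lay close at 0.03 and 0.03 for the abundant class and −0.68 and −0.61 for the class under 1 RPKM, and apart at −0.62 and −0.22 in the class between, which held 10 members. In the abundant class the share of lower calls was close to its background, and in the class under 1 RPKM it was below it.

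**Figure D2:**
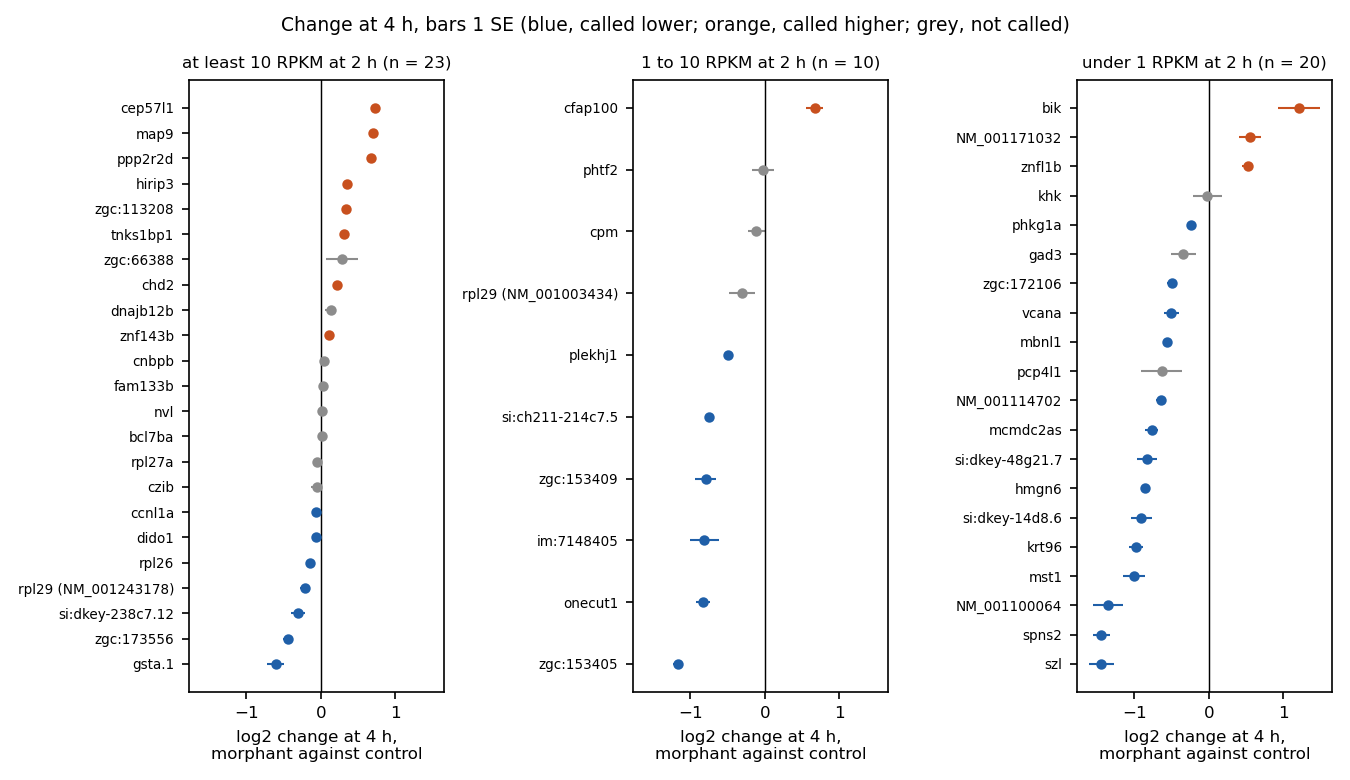
Log2 change of morphant against control embryos at 4 h, with bars of 1 standard error, for 53 of the 54 members with a mean of at least 1 RPKM over the 4 libraries of 4 h, in 3 panels by control level at 2 h (blue, called lower; orange, called higher; grey, not called at an adjusted p of 0.05 by edgeR). Members abundant at 2 h spread on both sides of 0, from gsta.1 at −0.61 to cep57l1 at 0.73, and most members under 1 RPKM at 2 h lie below 0, down to szl and spns2 at −1.44.

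Among members with a mean of at least 1 RPKM at 4 h, the 8 lowest were below the controls in both morphant libraries, with no overlap, and 7 of them are given here. szl, or sizzled, a secreted inhibitor of Tolloid proteases that restrains dorsoventral BMP signalling, was at 2.41 and 3.06 RPKM against 1.09 and 1.05 RPKM (log2 change −1.44 ± 0.17 SE, edgeR adjusted p = 5.99e-07). spns2 was at 7.42 and 8.91 RPKM against 3.01 and 3.19 RPKM (−1.44 ± 0.12, adjusted p = 3.53e-09). At 6 h both genes were at 17.2 to 28.3 RPKM in control libraries and at 4.12 to 4.65 RPKM in morphant libraries.

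NM_001100064, which has no symbol in the tables used, was at 4.42 and 4.35 RPKM against 1.86 and 1.73 RPKM (−1.35 ± 0.20, adjusted p = 8.50e-06). zgc:153405 was at 44.8 and 41.9 RPKM against 20.3 and 20.5 RPKM (−1.17 ± 0.07, adjusted p = 1.25e-11). mst1, the gene of a secreted protein related to hepatocyte growth factor, was at 14.6 and 14.9 RPKM against 7.85 and 7.48 RPKM (−1.01 ± 0.14, adjusted p = 3.89e-06). The keratin gene krt96 followed at −0.98 ± 0.09 and si:dkey-14d8.6 at −0.91 ± 0.14. NM_001100064 and mst1 were not called by DESeq2's Wald test at adjusted p = 0.192 and 0.497, with changes of −1.44 and −1.10.

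The 8 highest at 4 h by the same rule stood above the controls in both libraries, and at 6 h they lay below them by the choice of members. bik, which encodes a BH3-only inducer of apoptosis, was at 0.557 and 0.926 RPKM in controls and 1.12 and 1.59 RPKM in morphants (1.21 ± 0.29, adjusted p = 0.00106). cep57l1 was at 37.8 and 35.5 RPKM against 60.0 and 59.7 RPKM (0.73 ± 0.03, adjusted p = 5.76e-13). map9 was at 12.1 and 13.5 RPKM against 20.3 and 19.8 RPKM (0.70 ± 0.05, adjusted p = 9.15e-10).

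ppp2r2d was at 55.9 and 55.6 RPKM against 88.8 and 87.5 RPKM (0.68 ± 0.03, adjusted p = 2.63e-13). cfap100, a gene of cilia and flagella, was at 3.84 RPKM in both control libraries against 5.63 and 5.79 RPKM (0.67 ± 0.11), and at 6 h it was at 11 and 11.2 RPKM in controls and 0.918 and 0.937 RPKM in morphants. NM_001171032 (0.55 ± 0.15), znfl1b (0.52 ± 0.07) and hirip3 (0.35 ± 0.02) completed the group. The name NM_001171032 stands here for the numbered entry NM_001171032_4, and any other entry under that name was not looked at. The comparison of control 4 h with 2 h and that of morphants with controls at 4 h share the control 4 h libraries, so a low value there enters both. In cep57l1, map9, ppp2r2d and hirip3, which fell from 2 to 4 h in controls, both morphant libraries of 4 h lay between the control libraries of 2 h and 4 h. The call for NM_001171032 rested on the second control library of 4 h, without which its adjusted p was 0.0512.

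Translation was represented by 4 ribosomal protein transcripts of the large subunit and by cnbpb. rpl26 rose in controls from 425 and 433 RPKM at 2 h through 826 and 865 RPKM at 4 h to 2062 and 2096 RPKM at 6 h. In morphants it was at 747 and 778 RPKM at 4 h (−0.15 ± 0.02, adjusted p = 1.05e-05) and at 668 and 678 RPKM at 6 h, so the control rise between 4 and 6 h had no counterpart. rpl27a had the same shape, with 397 and 422 RPKM at 4 h and 866 and 874 RPKM at 6 h in controls and 384 and 405 RPKM and then 271 and 275 RPKM in morphants, and was not called at 4 h (adjusted p = 0.231).

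Of the 2 entries for rpl29, NM_001243178 went from 142 and 131 RPKM in controls to 32.4 and 32.2 RPKM in morphants at 6 h, and NM_001003434 from 19.0 and 18.6 RPKM to 3.71 and 4.93 RPKM. They are entries of 1 gene and their split of reads is uncertain. The ribosomal protein list held 89 transcripts with at least 10 RPKM in control 6 h. Of these, 85 were lower in morphants at 6 h, and the median ratio over the 89 was 0.494. Members were 4 of the 89, beside 1.26% of all 5161 transcripts at that level, and the rule itself makes these 4 the lowest of the list. At 4 h the median ratio over the 89 was 0.788. cnbpb, which encodes a zinc finger protein that binds RNA and single-stranded DNA, rose in controls from 80.8 and 77.8 RPKM at 4 h to 477 and 476 RPKM at 6 h and in morphants from 82.4 and 80.3 RPKM to 135 in both libraries.

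**Figure D3:**
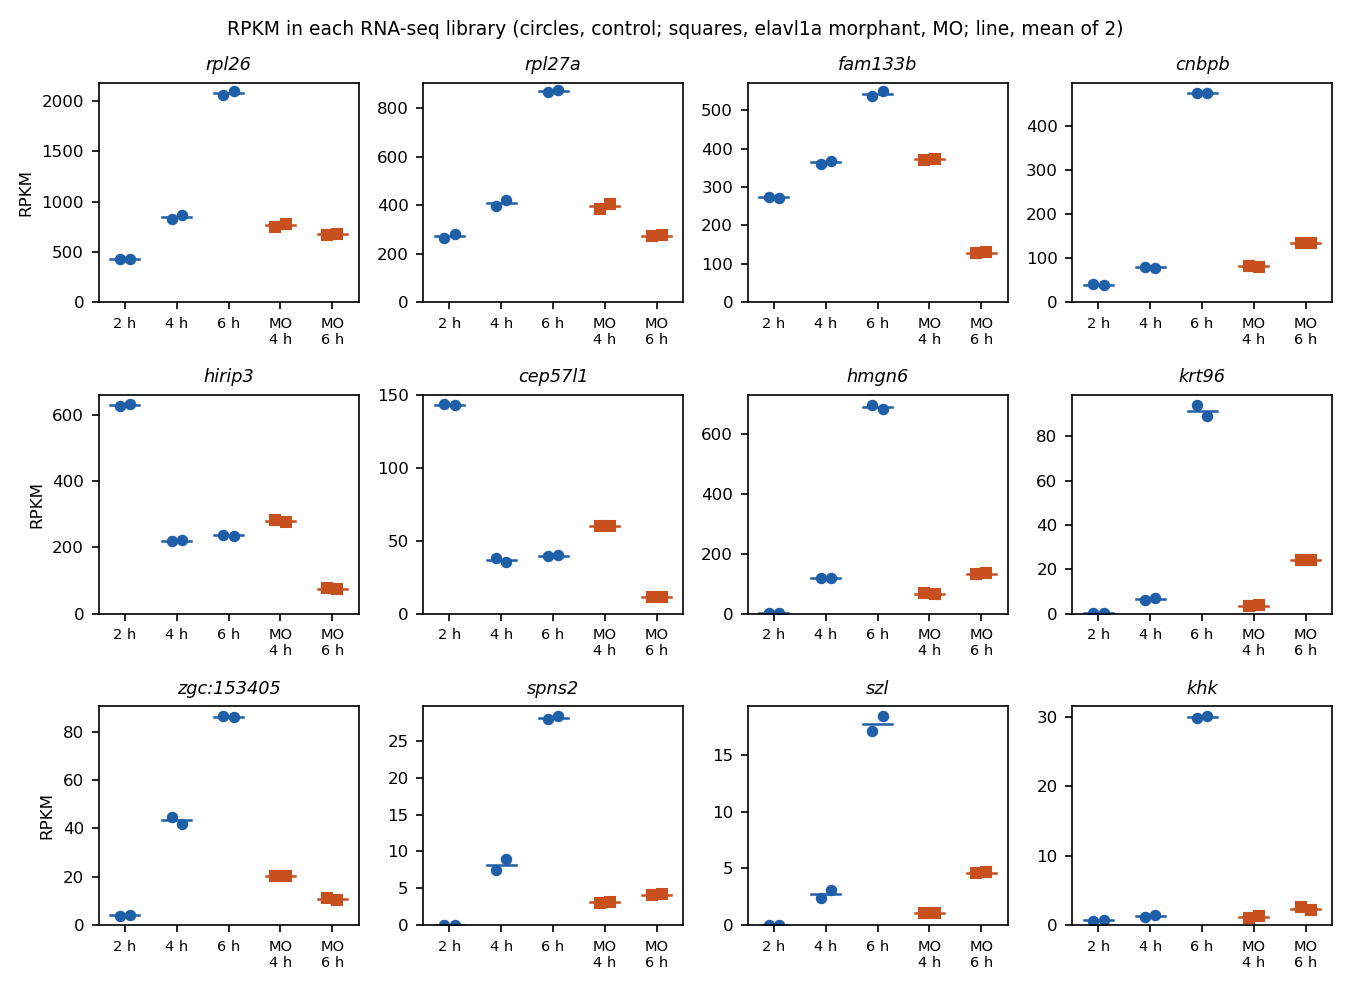
RPKM of 12 members in each RNA-seq library, on linear axes from 0 that differ between panels, with control embryos at 2, 4 and 6 h (blue circles) and morphants (MO) at 4 and 6 h (orange squares) and a line at the mean of the 2 libraries. Libraries of a group lie close together in all 12 panels. rpl26, rpl27a, fam133b, hirip3, cep57l1 and zgc:153405 are lower in morphants at 6 h than in morphants at 4 h, whereas cnbpb, hmgn6, krt96, spns2, szl and khk are higher at 6 h but short of the control level.

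Genes of nuclear proteins are grouped here by role, after their values were seen. hmgn6, which encodes a nucleosome-binding protein of the HMGN family, was at 0.227 and 0.262 RPKM at 2 h, 119 and 118 RPKM at 4 h and 699 and 684 RPKM at 6 h in controls. Morphants had 67.9 and 66.1 RPKM at 4 h (−0.85 ± 0.02, adjusted p = 2.93e-16) and 133 and 135 RPKM at 6 h. The 4 h libraries of both kinds did not overlap, and the 5.16-fold gap at 6 h made it the most depleted of the 10 most abundant members.

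Several members abundant at 2 h differed by at most 0.07 on the log2 scale at 4 h. fam133b was at 361 and 368 RPKM in controls and 372 RPKM in both morphant libraries at 4 h, not called at adjusted p = 0.221, and at 537 and 550 RPKM against 128 and 130 RPKM at 6 h. dido1, a gene of a chromatin reader with a PHD finger, was at 103 and 101 RPKM against 96.8 and 98.1 RPKM at 4 h (−0.07 ± 0.02, adjusted p = 0.0158), a small difference that passed the test, and at 149 and 147 RPKM against 36.0 and 38.3 RPKM at 6 h. ccnl1a, the gene of cyclin L1, which takes part in splicing, stayed at 66.1 to 77.5 RPKM in all 6 control libraries and in morphants went from 74.1 and 71.3 RPKM at 4 h (−0.07 ± 0.03, adjusted p = 0.0418) to 17.2 and 16.9 RPKM at 6 h.

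bcl7ba, a subunit gene of the SWI/SNF remodelling complex, was the 1 member whose control level fell to less than 0.5 of its 4 h level, from 127 and 123 RPKM at 4 h to 29.7 and 29.4 RPKM at 6 h. In morphants it went further, from 129 and 124 RPKM to 9.45 and 9.88 RPKM. nvl, the gene of a nuclear ATPase of ribosome biogenesis, went from 47.8 and 48.3 RPKM to 37.5 and 38.1 RPKM in controls and from 47.8 and 49.3 RPKM to 11 and 10.3 RPKM in morphants. Neither bcl7ba nor nvl was called at 4 h, with adjusted p of 0.568 and 0.593.

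Regulators of chromatin, splicing and transcription went both ways at 4 h. chd2, the gene of a chromatin remodeller, was higher in morphants at 4 h (0.22 ± 0.03, adjusted p = 3.11e-06) and at 22.4 and 22.6 RPKM against 6.56 and 6.80 RPKM at 6 h. mbnl1, the muscleblind splicing regulator, was lower at 4 h (−0.56 ± 0.06, adjusted p = 1.78e-07) and at 63.3 and 58.9 RPKM against 11.3 and 11.7 RPKM at 6 h. onecut1, a homeobox factor known from liver, pancreas and neural development, was lower at 4 h (−0.83 ± 0.09, adjusted p = 1.50e-07) and at 59.5 and 62.0 RPKM against 13.6 and 11.7 RPKM at 6 h. znf143b was slightly higher at 4 h (0.11 ± 0.04, adjusted p = 0.0294), close to the median of 0.07 over all tested transcripts.

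Among enzymes, transporters and secreted proteins, several were scarce at 4 h and abundant at 6 h in controls. khk, the gene of ketohexokinase, the first enzyme of fructose use, was at 1.13 and 1.44 RPKM in controls at 4 h and 29.9 and 30.1 RPKM at 6 h. In morphants it was at 1.03 and 1.23 RPKM and then 2.56 and 2.12 RPKM, a 12.8-fold gap at 6 h with no call at 4 h (adjusted p = 0.923). It was the only member among the 14 transcripts with at least 10 RPKM on a list of glycolysis, gluconeogenesis and fructose genes, whose median 6 h ratio was 1.01.

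a2m2e, a gene of the alpha-2-macroglobulin family of protease inhibitors, was at 0.255 and 0.303 RPKM at 4 h and 36.0 and 33.9 RPKM at 6 h in controls, and at 5.57 and 5.62 RPKM in morphants at 6 h. ckmt1, the gene of mitochondrial creatine kinase, was at 0.105 and 0.311 RPKM at 4 h in controls, unlisted in both morphant libraries of 4 h, and at 32.4 and 33.1 RPKM against 8.61 and 9.40 RPKM at 6 h. tm6sf2a, whose human counterpart acts in lipid secretion from the liver, was listed in 1 of the 4 libraries of 4 h and was at 30.4 and 30.9 RPKM against 9.18 and 9.98 RPKM at 6 h. These 3 went from near the listing limit at 4 h to at least 30.4 RPKM at 6 h in every control library and to at most 9.98 RPKM in morphants.

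slc47a1, an exporter of organic cations, was at 10.3 and 11.5 RPKM in controls and 1.85 and 2.07 RPKM in morphants at 6 h, and was 1 of 66 solute carrier transcripts with at least 10 RPKM, whose median ratio was 0.967. phkg1a, the gene of a catalytic subunit of phosphorylase kinase, was already near its 6 h level at 4 h in controls. It was at 69.7 and 69.1 RPKM at 4 h and 76.3 and 74.5 RPKM at 6 h in controls and went from 59.7 and 58.6 RPKM to 13.5 and 14.4 RPKM in morphants, and was lower at 4 h by a small step (−0.24 ± 0.03, adjusted p = 7.12e-07). gsta.1, a glutathione S-transferase gene, was at 12.9 and 12.7 RPKM against 8.12 and 8.72 RPKM at 4 h (−0.61 ± 0.12, adjusted p = 0.0001315) and was the lowest at 4 h of the 23 members abundant at 2 h.

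Patterning genes are given from lists, beside the 1.26% of all eligible transcripts that were members. szl was the 1 member among 19 transcripts on a list of BMP and dorsoventral genes, whose median ratio at 6 h was 0.842. Lists for endoderm, mesoderm and notochord, prechordal plate, neural plate, surface ectoderm, Nodal signalling, and Wnt and Fgf signalling held no member among 9, 13, 9, 14, 10, 9 and 18 transcripts, with median ratios of 1.249, 1.11, 0.927, 0.949, 0.747, 1.01 and 0.992. krt96 was at 94.2 and 89.0 RPKM in controls and 24.0 and 24.3 RPKM in morphants at 6 h, and 19 transcripts on the list for enveloping layer and keratin genes, which did not hold it, had a median ratio of 0.871. pleca, the gene of the linker protein plectin, was at 25.9 and 25.5 RPKM against 7.09 and 7.26 RPKM, and vcana, the gene of the matrix proteoglycan versican, at 11.4 and 11.6 RPKM against 2.48 and 2.55 RPKM.

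The most depleted member, eva1ba, was at 10.6 and 10.8 RPKM in controls at 6 h and listed in 1 of 2 morphant libraries, at 0.106 RPKM. The morphant library of 6 h that listed eva1ba held no unique read of it, so that value came from reads mapped to several places. In the other morphant library of 6 h eva1ba was unlisted, so its reads there are not known. At 4 h eva1ba was at 0.728 and 0.75 RPKM in controls and 1.05 and 1.07 RPKM in morphants (0.81 ± 0.30, adjusted p = 0.0242). The noncoding members were mcmdc2as, NR_134974, si:dkey-48g21.7 and si:dkey-238c7.12. mcmdc2as is antisense to mcmdc2, and since the sources do not say whether strand was used in counting, its 86.8 and 87.8 RPKM in controls and 22.7 and 21.9 RPKM in morphants at 6 h may hold reads of both strands.

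The icSHAPE profiles, made from separate embryo pools, carry 1 value per transcript that was taken as an RPKM. The library behind this value is not given in the sources used here. On that reading, the depletion was looked for in values that the rule did not use. At shield, 46 members were listed in the wild-type profile and 28 of them in the morphant profile, so that 39.1% were lost from the listing against 38.5% of the 6996 transcripts listed in wild type. Among members with at least 20 RPKM in wild type, 4 of 26 (15.4%) were unlisted in the morphant against 3.65% of 4028. These 4 were at 23.0 to 25.7 RPKM in wild type, and the 4028 were not matched to them for level. In the 28 listed in both, the median ratio of morphant to wild type was 0.946 (range 0.503 to 8.44) against 0.977 over all 4300 transcripts listed in both, while the RNA-seq ratio of the same 28 was 0.249 (range 0.123 to 0.329). None of the 28 was at least 3-fold lower in the morphant profile, and none of the 4300 was (0%). All 28 were at 20.4 RPKM or more in the morphant profile, which listed 4303 transcripts in all. A member not far above that level in wild type could drop out of the listing by a small fall. Members that dropped out have no ratio, so these ratios cannot show their falls, small or large. Members below 20.4 RPKM in wild type and listed in both had ratios above 1, and they enter the median of 0.946. Over the 22 members with at least 20 RPKM in wild type, a tier chosen after seeing the data, the median was 0.856. No median over all transcripts was taken at that tier.

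Among the abundant members, the icSHAPE levels of both kinds of embryo lay closer than in RNA-seq. rpl26 was at 649 RPKM in the wild-type and 522 RPKM in the morphant shield profile, rpl27a at 729 and 453 RPKM, and hmgn6 at 456 and 421 RPKM. fam133b was at 86.0 and 104 RPKM, cnbpb at 113 and 110 RPKM, hirip3 at 30.3 and 48.5 RPKM and dido1 at 32.4 and 49.6 RPKM. The lowest ratios were 0.503 for NM_001114702, 0.517 for zgc:173556 and 0.622 for rpl27a, and the highest were 8.44 for zgc:153409, 3.23 for zgc:153405 and 2.57 for dnajb12b. In wild type the last 3 were at 8.72, 11.2 and 16.1 RPKM, below the lowest morphant level among the 28, 20.4 RPKM. Members so low in wild type had ratios above 1 wherever the morphant profile listed them, so these are not read as rises. Of the 28, 9 lay above the 95th percentile of all transcripts, 1.34, and 6 below the 5th percentile, 0.730. The 9 include zgc:153409, zgc:153405 and dnajb12b. They also include a2m2e and onecut1, at 16.7 and 16.9 RPKM in wild type and thus below 20.4 RPKM as well. The 9 are therefore not read as an excess of high ratios.

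**Figure D4:**
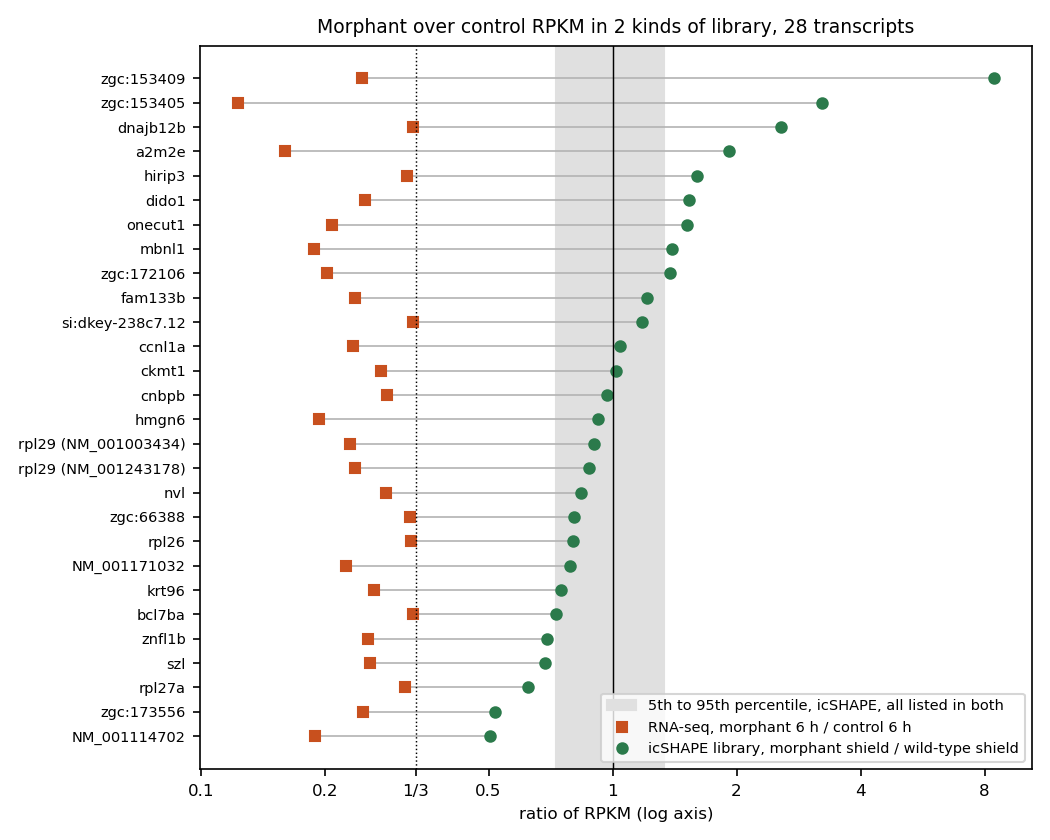
Ratio of RPKM between Elavl1a-deficient and control embryos, on a log axis, for the 28 members listed in both shield icSHAPE profiles, in RNA-seq (orange squares, morphant 6 h over control 6 h) and in icSHAPE libraries (green circles, morphant over wild-type shield). The dotted line is the limit of the rule and the grey band the 5th to 95th percentile of the icSHAPE ratio over 4300 transcripts, 0.730 to 1.34. The RNA-seq ratios lie at or left of the dotted line by the rule, and the icSHAPE ratios lie between 0.503 and 8.44.

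Over all transcripts, the icSHAPE RPKM followed the RNA-seq in other respects. Across 6821 transcripts, the Spearman correlation of wild-type shield with control 6 h was 0.824, and across 6095 that of the shield to sphere ratio with the control 6 h to 4 h ratio was 0.900. Among members the same correlations were 0.402 (46 members) and 0.852 (26 members). That of morphant shield with morphant 6 h was 0.815 across 4247 transcripts and 0.482 across 28 members. The rule bounded the 6 h RNA-seq levels of members, so no conclusion is drawn from their lower correlations of level. For the ratio of morphant to wild type at shield the correlation with the RNA-seq ratio at 6 h was 0.023 across 4225 transcripts, and at sphere it was 0.187 across 6743. These are descriptions across transcripts that share libraries, and genes are not independent replicates. Among transcripts with at least 10 RPKM in control 6 h, in 7 bins of RNA-seq ratio from at least 3-fold lower to at least 3-fold higher, the median icSHAPE ratio lay between 0.930 and 0.985.

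The time course of members could also be set beside that in RNA-seq, where the rule itself chose a low morphant and a high control level at 6 h. For the 18 members listed in both morphant profiles the median ratio of shield to sphere was 1.39, against 1.39 for control 6 h over 4 h and 0.367 for morphant 6 h over 4 h in RNA-seq. Shield was above sphere in 11 of these 18, control 6 h above 4 h in 12 and morphant 6 h above 4 h in 2. By rank across the 18 members, the icSHAPE ratio had a Spearman correlation of 0.911 with both RNA-seq ratios. Over all transcripts its correlation was 0.897 with the control ratio (3790 transcripts) and 0.816 with the morphant ratio (3795 transcripts). The counts of 11, 12 and 2 were not taken over all transcripts. Each icSHAPE profile is 1 pooled value, so these ratios have no replicate error. The sources used here do not say whether these morphants came from the same injections as the RNA-seq morphants, and the part of that in the difference was not tested.

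At sphere, 21 members were listed in both profiles with a median ratio of 1.22 against 0.960 over 6882 transcripts, and 8 were below wild type (38.1%) against 58.2% of all. The same 21 had a median RNA-seq ratio at 4 h of 1.01. hirip3 was at 45.1 RPKM in wild type and 77.3 RPKM in the morphant and cep57l1 at 35.5 and 49.998 RPKM, in the direction that RNA-seq gave at 4 h. hmgn6, lower in RNA-seq, was at 14.1 and 39.0 RPKM at sphere. The lowest level among the 21 in the morphant profile was 15.8 RPKM. In wild type hmgn6, si:dkey-238c7.12, zgc:113208 and dnajb12b were below it, at 14.1, 13.8, 10.04 and 9.83 RPKM. Their ratios above 1 are therefore not read as rises, and they enter the median and the share above. Members that dropped out of the morphant listing have no ratio.

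Structure profiles covered a minority of the members. A reactivity is a fraction from 0, paired or protected, to 1, flexible, and a transcript was used where over 50% of its nucleotides had a value. This left 18 members in the egg, 16 at the 1-cell stage, 14 at the 4-cell stage, 17 at 2 h, 18 at sphere and 25 at shield in wild type, and 16 at sphere and 20 at shield in morphants. The median mean reactivity of members and of all transcripts was 0.295 and 0.297 in the egg, 0.245 and 0.245 at 2 h, 0.295 and 0.289 at sphere and 0.270 and 0.291 at shield. At shield the 25 members were spread from 0.144 to 0.340, with 16 below the median of all transcripts, whose 5th and 95th percentiles were 0.244 and 0.328.

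**Figure D5:**
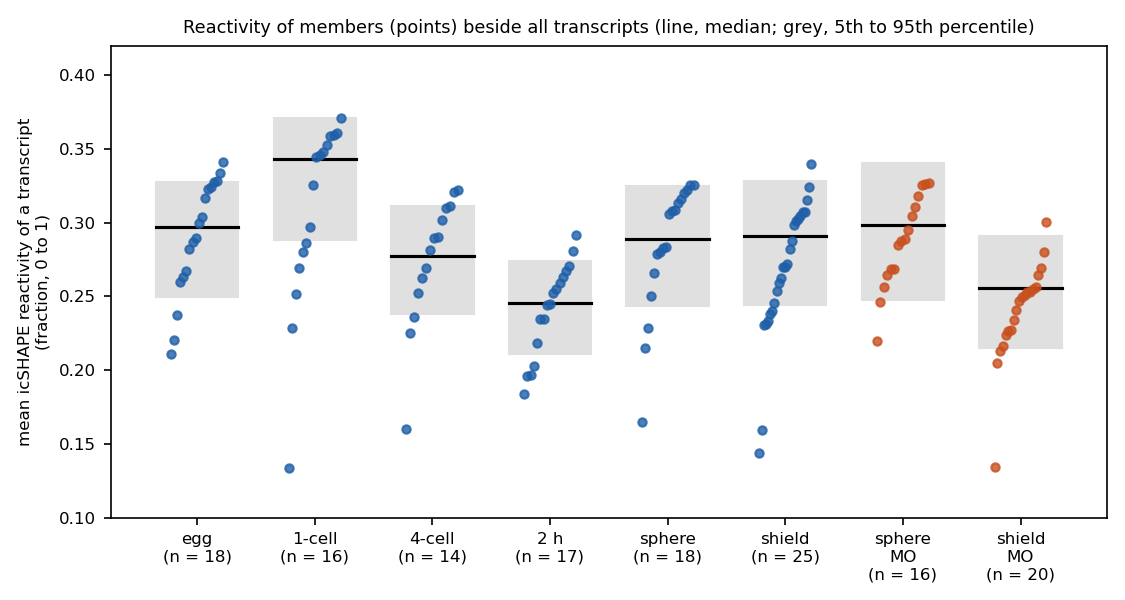
Mean icSHAPE reactivity per transcript (fraction from 0 to 1, axis cut below 0.1) for members with over 50% of nucleotides valued (points, ordered by value within a profile; blue, wild type; orange, morphant, MO), beside the median of all such transcripts (black line) and their 5th to 95th percentile (grey) in 8 pooled profiles. Members span the grey band and reach below it in each profile, and both members and all transcripts are lower in the morphant shield profile (medians 0.248 and 0.255) than in wild type (0.270 and 0.291).

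The lowest member at shield was krt96 at 0.144 in wild type and 0.135 in the morphant, followed by the noncoding si:dkey-238c7.12 at 0.159 in wild type, and both were below the 5th percentile of all transcripts. The highest was rpl26 at 0.340. From wild-type sphere to shield, the largest rises were NM_001114702, from 0.165 to 0.259, rpl26, from 0.282 to 0.340, and rpl27a, from 0.215 to 0.270. Over the 14 members valued at both stages the median difference was 0.001, as over all 3467 transcripts at −0.001. NM_001114702 had values at 51.7% of its nucleotides at sphere and 83.7% at shield, so its profiles cover different stretches.

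Between wild type and morphant at shield, mean reactivity was lower in the morphant in all 17 members valued in both, by a median of −0.026. It was also lower in 97.7% of 3327 transcripts, by a median of −0.039. The wild-type and morphant profiles came from different numbers of listed libraries and held 6996 and 4303 transcripts. Morpholino and library set are thus confounded in these differences, and their parts were not tested. The largest falls were rpl26 from 0.340 to 0.255, ckmt1 from 0.298 to 0.227, hirip3 from 0.315 to 0.253, ccnl1a from 0.302 to 0.241 and zgc:173556 from 0.282 to 0.234. The smallest were those of the rpl29 entry NM_001243178 from 0.288 to 0.280 and krt96 by 0.009, and no member rose. The other rpl29 entry, NM_001003434, went from 0.233 to 0.213. Nucleotides at exactly 0 were 23.4% of valued nucleotides in the median member in the morphant profile and 11.5% in wild type, against 21.7% and 10.4% over all transcripts, and their part in the fall was not tested. With zeros left out the median difference of members was 0.005, with 6 of 17 lower. Over the 3327 transcripts it was −0.0015, with 53.8% lower. At sphere the 14 members valued in both had a median difference of −0.001, with 7 of 14 lower, against 0.002 over 3871 transcripts.

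Structure was also compared in windows of 10 nucleotides with at least 8 valued in both profiles. A window was called variable when its mean difference exceeded 0.05 with a nominal p under 0.05 over its nucleotides, a filter taken from the study's methods that gives no replicate error. Between wild type and morphant at shield, 19.2% of 2166 member windows were variable against 21.7% of 642553 windows in all, and 74.7% of the variable member windows fell in the morphant against 79.98%. At sphere it was 14.8% of 1785 member windows against 14.9%. From wild-type sphere to shield it was 17.03% of 1720 member windows against 11.8%, of which 36.9% fell against 49.8%, and 61 of the 185 rising member windows were in NM_001114702.

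Single members ranged widely in these windows at shield. rpl26 had 18 falling and 1 rising window of 48, hmgn6 30 falling and 4 rising of 107, ckmt1 26 falling and 0 rising of 109, and hirip3 25 falling and 1 rising of 177. mbnl1 and zgc:172106 went the other way, with 12 and 14 rising and 0 falling of 25 windows each, where values covered 17.1% and 15.3% of their nucleotides in wild type. rpl26 also had 17 rising and 0 falling windows of 48 from sphere to shield in wild type. Its mean reactivity was 0.282 at wild-type sphere, 0.340 at wild-type shield and 0.255 at morphant shield. By position, in transcripts of at least 300 nucleotides with at least 50 valued in the stretch, members had medians at wild-type shield of 0.341 in the first 100 nucleotides (16 members), 0.240 in the last 100 (21 members) and 0.263 between (23 members), against 0.354, 0.262 and 0.290 over all transcripts.

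The median length of members was 1680 nucleotides against 1861 over the 5161 transcripts, and 8 of 65 (12.3%) were under 600 nucleotides against 3.22%, the shortest being zgc:66388 at 184. Over 10% of the reads of 15 members were mapped to several places, up to 13.3% in eva1ba, and counting these reads changed the 4 h counts to 34 lower and 12 higher.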

How the data were processed

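RNA-seq of 10 libraries and icSHAPE profiles of 8 conditions were analysed. Per the study's methods the authors trimmed reads, mapped them to RefSeq transcripts with Bowtie2, kept mapping quality of at least 20 and deposited, per transcript, counts of unique and multiple reads and RPKM computed from both kinds of read. Transcripts under 0.1 RPKM are unlisted and entered as 0, also in the fit. The deposited icSHAPE files hold 1 RPKM and, per nucleotide, a reactivity fraction from 0 to 1 with replicates combined; the third column was taken as RPKM from the usual layout of such files, and the library behind it is not given in the sources used here. Whether counting used strand is not given either. iCLIP peak lists, identical between replicates and given in genome coordinates, were not used here.

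Unique counts were tested in edgeR 4.0.16 (R 4.3.3) by the quasi-likelihood method over 5 groups in 1 fit, scaled by library totals. Testing covered 9945 transcripts that averaged 1 RPKM or more over the 10 libraries, all 65 members among them, which passed through their control 6 h level. DEGseq, used by the authors, was not run. Replicates differed by 3.36 to 4.58 times the sampling variance and were kept apart. In the fit the spread between replicates beyond sampling was small, at a coefficient of variation of 0.027. Whether it includes differences between clutches or injections is not known. Replicate numbers did not pair samples (correlations −0.02 to 0.045). The edgeR step was tested on simulated data. Alternatives used DESeq2 1.42.0 and limma 3.58.1 (log2(RPKM + 1) and log2(RPKM + 0.1)).

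The members and gene lists were chosen with earlier results of these data known. Named were the most abundant and most depleted members, the extremes of the 4 h and 2 to 4 h comparisons, of reactivity and of each threshold, and list members; others were named by role, or by their rise from 2 h, after their values were seen. Symbols came from RefSeq (GRCz12tu), which matched 62 of 65. The p-values measure the spread between the deposited replicates. Some results that the naming rule would have included are not reported here.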

Additional observations from a re-analysis of the deposited data

Results flagged for a closer look

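In 14 members, both morphant libraries of 4 h were above both control libraries with an edgeR adjusted p under 0.05, and at 6 h both morphant libraries were below both controls, so the direction of the morphant difference turned between 4 and 6 h. These are 21.5% of the members, against 39.5% of all tested transcripts called higher at 4 h. The 6 h direction is fixed by the choice of members, and the difference between both ages was not tested. The log2 changes at 4 h were 1.21 for bik, 0.964 for zgc:174888, 0.81 for eva1ba, 0.728 for cep57l1, 0.699 for map9, 0.677 for ppp2r2d, 0.669 for cfap100, 0.553 for NM_001171032, 0.518 for znfl1b, 0.346 for hirip3, 0.335 for zgc:113208, 0.307 for tnks1bp1, 0.216 for chd2 and 0.111 for znf143b. Over all tested transcripts the median was 0.07, so the value of znf143b was close to it. In mean RPKM, ppp2r2d was at 55.8 in controls and 88.2 in morphants at 4 h and at 45.2 and 14.0 at 6 h, and tnks1bp1, a gene of a tankyrase partner, was at 46.7 and 57.0 and then at 39.7 and 11.4. bik, zgc:174888 and eva1ba were at most 1.35 RPKM in mean at 4 h. The RPKM of bik and zgc:174888, which counts multiple reads as well, differed by 1.82 and 1.34 times.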

How the results depend on the processing

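The number of members was 29 with a 4-fold limit, 332 with a 2-fold limit and 40 with at least 20 RPKM in control 6 h; it was 96 with RPKM rescaled by TMM factors and 95 from 5 RPKM, and 62 to 70 without 1 library of 6 h. The count lower in morphants at 4 h was 29 to 37 under the other scalings, tests and filters and 28 to 33 without 1 library of 4 h; the count higher was 11 to 15 and 11 to 13. The count higher at 4 h than at 2 h in controls was 46 to 54 and 43 to 46, and the count lower 7 to 10 and 8 to 10. Scaling moved the background too: under TMM 30.9% of all transcripts were lower in morphants at 4 h and 29.9% higher, and under DESeq2 size factors 33.2% and 27.9%. From 2 to 4 h in controls the share of all transcripts higher was 24.3% to 44.5% under these settings and the share lower 34.5% to 54.8%. With the replicate number as a block the counts were 32, 14, 48 and 10, with the same members called. Of the named members' changes at 4 h, 189 values under alternatives kept their call and 3 lost it; from 2 to 4 h in controls 142 kept it and 2 lost it, both for zgc:174888, without control 2 h replicate 2 (adjusted p = 0.144) and without control 4 h replicate 2 (0.0568). With nucleotides at 0 left out, the median reactivity difference of members at shield was 0.00497 in place of −0.026. Over all transcripts it was −0.0015 in place of −0.039. Counting multiple reads and the tier of at least 20 RPKM in icSHAPE (median ratio 0.856) were chosen after seeing the data. 2 libraries per group, 1 pooled icSHAPE profile per condition and the listing limit set the precision.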
